A study of Mus musculus with 12 samples.

Results

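Gamma-delta T cells and innate lymphoid cells of the newborn mouse meninges, the membranes around the brain, are described here as 233 cells among 21689 that passed filtering. They were chosen by unique molecular identifiers (UMIs), each of which stands for 1 captured RNA molecule. A cell needed at least 4 UMIs summed over Il7r, Trdc, Tcrg-C1, Gata3, Rora and Cd163l1, with at least 1 UMI of Il7r or Trdc. It also needed no productive T-cell receptor beta chain (TRB) contig in the matching receptor library, no UMI of the B-lineage genes Cd79a and Igll1, and at most 5 UMIs of the macrophage genes Mrc1, Cd163, F13a1, Cbr2 and Pf4. A contig is an assembled receptor transcript. Cells with at least 1 UMI of Cd3d, Cd3e or Cd3g, which encode the CD3 chains that carry the T-cell receptor, were set apart as CD3-positive (124 cells, labelled gamma-delta T) from cells with none (109 CD3-negative cells, labelled innate lymphoid). Everything used by this rule is described below without a test. Sums of the 6 genes ran from 4 to 90 UMIs with a median of 27, 13 cells sat at exactly 4 UMIs, and 11 cells that met all other terms sat at 3 and were left out. The limit on macrophage genes left out 18 cells above 5 UMIs, and 2 selected cells had 4. A productive TRB contig kept out 49 cells.

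The libraries came from C57Bl/6j mice at postnatal day 4 and were made with a 10x Genomics 5' kit. Of 4 gene expression libraries, 2 held pups at 6 h after HI, which stands for hypoxia-ischemia, an insult of reduced oxygen and blood flow to the newborn brain, and 2 held naive pups. Each library pooled 12 pups, 6 male and 6 female, and had its own T-cell and B-cell receptor library. No mutant allele or drug is named for either group, and the libraries hold no sham group, so the procedure around HI cannot be told apart from HI. The pool is the unit of replication. The design text names 2 runs, each with an HI and a naive pool, but the labels do not say which library was in which run, so differences between runs lie inside the spread between pools. Whether the pools came from separate litters is not stated, and p-values measure the spread between these 4 pools.

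The selected cells numbered 32 and 63 in the HI libraries and 62 and 76 in the naive libraries. Their median depth was 11677.5 and 11081 UMIs per cell in HI and 12232 and 12337.5 in naive, within libraries of 51986763 and 68543046 UMIs in HI and 62062630 and 65759672 in naive. Between 29 and 55 barcodes were shared by any 2 libraries, and none of the selected cells had a shared barcode. A doublet caller marked 3 of 32 and 8 of 63 selected cells in HI and 1 of 62 and 7 of 76 in naive, and these were kept. It was set to mark 0.8% of filtered cells per 1000 barcodes, with 4213 and 6421 barcodes in HI and 5134 and 5954 in naive. Selected cells were marked above this share in both HI libraries and naive library 2, and below it in naive library 1. Their median doublet score was 0.086, against 0.0579 in macrophages. RNA of another lineage (macrophage, mast cell or basophil genes) was carried by 2 and 4 selected cells in HI and by 4 and 4 in naive. Gene values below are sums over a class in a library, in which fewer cells of a type and less RNA per cell cannot be told apart. Numbers of cells are given beside some of them. Gamma V segments are close copies of each other, and how the authors' counting split reads between them is not given in the sources used here.

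Gamma-delta T cells carry a receptor made from gamma and delta chain genes in place of alpha and beta. They leave the fetal thymus in waves, each with its own gamma and delta variable (V) segments, and the wave that uses the gamma segment V6 settles in barrier tissues, the meninges among them, and is known for making interleukin-17. Innate lymphoid cells respond to tissue cytokines like T cells but carry no rearranged antigen receptor. Group 2 innate lymphoid cells depend on GATA3 and make interleukin-5 and interleukin-13. Group 3 cells make interleukin-17 and interleukin-22, and the related lymphoid tissue inducer cells build lymph nodes before birth through lymphotoxin.

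The genes of the rule were shared unevenly among the cells it chose, and are given as a description. Il7r, the interleukin-7 receptor that these lineages need, was found in 94.4% of CD3-positive and in all CD3-negative cells, against 77.7% of alpha-beta T cells and 0.241% of macrophages. Trdc was found in 52.4% of CD3-positive and 11% of CD3-negative cells, and Cd163l1, a scavenger receptor of interleukin-17-producing gamma-delta T cells, in 51.6% and 1.83%. Gata3 was found in 68.5% and 57.8%, and Rora in 79% and 73.4%.

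The CD3-positive class was not of one kind. Cd3d or Cd3e was found in 83 of its 124 cells, and the other 41 cells had Cd3g as their only CD3 gene. This further split, and the ranking of leading genes in it, were chosen after the values were seen. The median doublet score was 0.0821 in the 83 cells and 0.111 in the 41. In all 4 libraries the 83 cells outnumbered the 41, with 9 and 17 against 6 and 10 cells in HI and 23 and 34 against 14 and 11 in naive. They differed in receptor genes and in other genes, as the plot of marker genes by class shows beside the CD3-negative class.

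**Figure D1:**
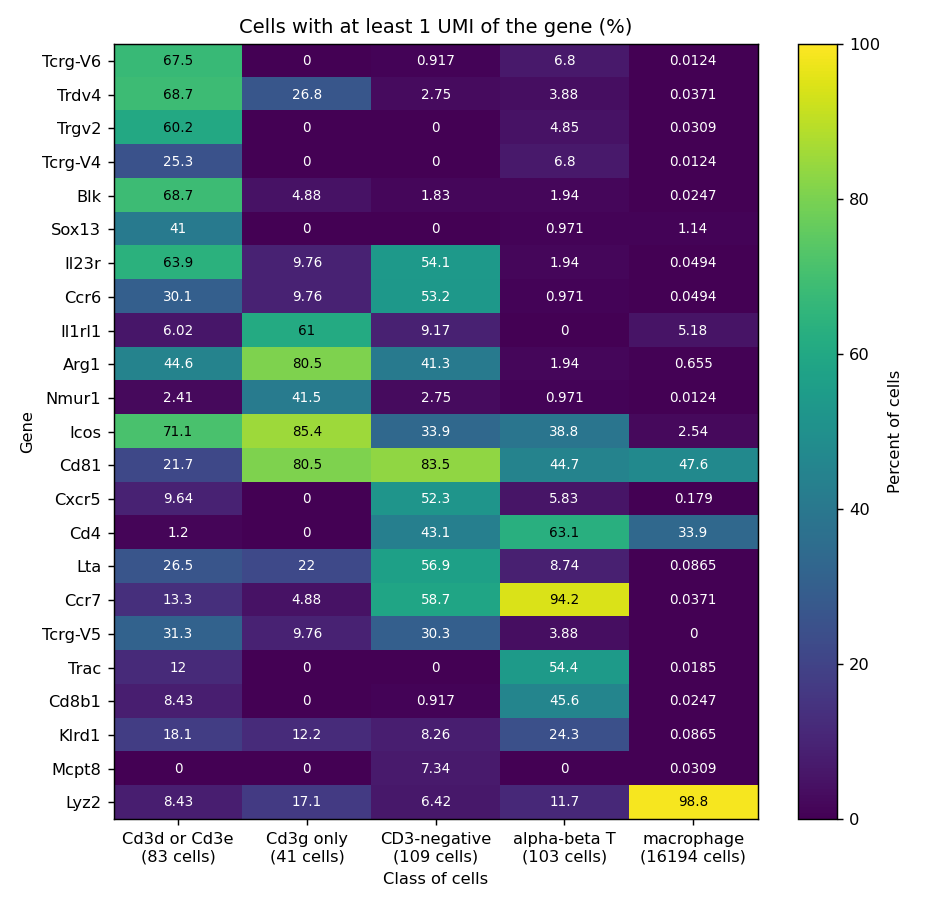
Percent of cells with at least 1 UMI of each of 23 genes (rows) in 5 classes of cells (columns, with the number of cells), coloured from 0 to 100%. The gamma V segment Tcrg-V6 was found in 67.5% of cells with Cd3d or Cd3e and in none of the 41 Cd3g-only cells, Il1rl1 was found in 61% of Cd3g-only cells, and Cxcr5 in 52.3% of CD3-negative cells.

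Cells with Cd3d or Cd3e carried the receptor transcripts that the gamma-delta label calls for. A gamma V segment other than Tcrg-V5 was found in 73 of the 83 (88%, exact 95% binomial interval 79 to 94.1%), a delta V segment in 66 (79.5%, 69.2 to 87.6%) and the delta constant gene Trdc in 61 (73.5%). Intervals here and below cover counting error only. The same shares were 11.7% for a gamma V segment other than Tcrg-V5 and 14.6% for a delta V segment in 103 alpha-beta T cells, which had a productive TRB contig and a CD3 gene. In 16194 macrophages, which should lack these genes, they were 0.0309% and 0.0432%. Median depth was 11805 UMIs per cell in the 83 cells, against 8549 in the alpha-beta T cells and 10738 in the macrophages. The leading genes of the 83 cells over all other selected cells were Tcrg-V6, Trgv2, Trdv4, Cd247 (the zeta chain of the T-cell receptor complex), Blk and Actn2.

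One receptor pair held most of the class. Tcrg-V6 was found in 56 of the 83 cells and the delta segment Trdv4 in 57, and 54 had both (7 and 10 cells in HI, 19 and 18 in naive). These 54 cells shared further genes that were not part of the rule. Every one of them had UMIs of Blk, a kinase of interleukin-17-producing gamma-delta T cells, and of Cxcr6, a receptor of tissue-resident lymphocytes. Il23r, the receptor for interleukin-23, was found in 51 of the 54 (94.4%), Ccr2 in 53 (98.1%), Maf in 52 (96.3%) and Il1r1 in 35 (64.8%). Cd27, which marks interferon-gamma-producing gamma-delta T cells in mice, was found in none of the 54. All 54 also had Cd163l1, with 1410 UMIs among them. Cd163l1 was part of the rule and is itself a gene of interleukin-17-producing gamma-delta T cells. The rule could therefore favour cells of this kind, and its part in the shares above was not tested.

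The remaining 29 cells with Cd3d or Cd3e were of another make. Cd27 was found in 22 of them (75.9%), the cytotoxic granule gene Nkg7 in 22 (75.9%), the receptor Klrd1 in 15 (51.7%) and the chemokine Ccl5 in 15 (51.7%). Il23r was found in 2 (6.9%) and Il1r1 in none. The gamma segments Tcrg-V4 and Trgv2 were each found in 16 of the 29 (55.2%), against 5 (9.26%) and 34 (63%) of the 54 paired cells. Cd8b1, a chain of the CD8 co-receptor, was found in none of the 54 and in 7 of the 29, while Trac, the alpha chain constant gene, was found in 5 of the 54 and in 5 of the 29. Trbc1, a beta chain constant gene, was found in 39.8% of the 83 cells and ranked 12 among their leading genes. At least 2 of 14 alpha-beta T genes were found in 71 of the 83 cells (85.5%) and in 89 of 109 CD3-negative cells (81.7%). The median was 3 genes per cell in both, against 8 in alpha-beta T cells. Of all 83 cells, 8 had neither a gamma or delta V segment nor Trdc, so for them the label rests on the CD3 genes and on the missing productive TRB contig.

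The cytokine itself was rare. Il17a was found in 6 of the 54 paired cells and in none of the 29, and 88 of the 95 UMIs in these cells came from 1 cell of HI library 2. Il17f had 75 UMIs in 4 of the 83 cells. Il17f was also found in 28 of 109 CD3-negative cells (25.7%), 2 and 8 cells in HI and 9 and 9 in naive, while Il17a was found in none of the 109.

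In gamma V segments and Trdc the 41 Cd3g-only cells went against the gamma-delta label, while some of them had a delta V segment. None of them had a gamma V segment other than Tcrg-V5 (0 of 41, which allows a share of up to 8.6%), 4 had Trdc and 4 had Tcrg-V5. A delta V segment was found in 13 of the 41 (31.7%), against 3 of 109 CD3-negative cells (2.75%). The share was 14.6% in alpha-beta T cells and 79.5% in cells with Cd3d or Cd3e. Trdv4 was found in 11 of the 41, 7 of these in naive library 1, at 26 UMIs in all, against 1288 UMIs in the 83 cells. Their leading genes over the other selected cells were Stab2, Rnf128, Rxrg, Alox5, 1810011H11Rik and Hlf, with Nmur1, Il1rl1 and Il9r among the first 12. Il1rl1, the interleukin-33 receptor, was found in 25 of the 41 (61%), Nmur1, the neuromedin U receptor of group 2 innate lymphoid cells, in 17 (41.5%) and Arg1 in 33 (80.5%). Arg1 was not particular to them. It was found in 62.5% and 50.8% of all selected cells in HI and in 50% and 42.1% in naive. Gata3, a gene of the rule, was found in 36 (87.8%). Il13 was found in 9 cells, Il5 in 6 and Areg in 4, and these 3 genes encode products of group 2 innate lymphoid cells. The group 2 innate lymphoid list of 20 genes gave a median of 9 genes per cell here, against 4 in the cells with Cd3d or Cd3e and 4 in the CD3-negative cells. They are called Cd3g-only cells below, and the CD3-positive class therefore mixes them with the gamma-delta T cells.

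CD3-negative cells showed some genes of group 3 innate lymphoid and lymphoid tissue inducer cells. Their leading genes over the other selected cells were Hmgn3, Ddc, Cd4, Rasl11a, Cd36 and Grb10, with Ccr7, Cxcr5 and Lta among the first 12. Cxcr5, a chemokine receptor of lymphoid tissue inducer cells, was found in 57 of the 109 (52.3%), Ccr6 in 58 (53.2%), Lta, which encodes lymphotoxin alpha, in 62 (56.9%) and Cd4 in 47 (43.1%). Cd4 was found in 33.9% of macrophages too, in which the others were rare (Cxcr5 in 0.179%, Ccr6 in 0.0494% and Lta in 0.0865%). The group 3 list of 15 genes gave a median of 8 genes per cell. The median was 6 in cells with Cd3d or Cd3e, 3 in Cd3g-only cells and 2 in macrophages. At least 2 of the 15 were found in 94.5% of CD3-negative cells, 90.4% of cells with Cd3d or Cd3e and 90.2% of macrophages. The interleukin-17 list had a median of 8 in CD3-negative cells and 12 in cells with Cd3d or Cd3e. Il22 had 4 and 10 UMIs in HI and 11 and 7 in naive over all selected cells.

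The CD3-negative class was mixed. Tcf7, a transcription factor of early lymphocytes, was found in 84 of the 109 cells (77.1%), and Il23r in 59 (54.1%). Both were found in every library, Il23r in 9 and 17 cells in HI and in 17 and 16 in naive, and Tcf7 in 11 and 30 cells in HI and in 20 and 23 in naive. Of the 109, 8 cells had at least 2 genes of mast cells and basophils (0 and 3 in HI, 3 and 2 in naive), and Mcpt8, a basophil protease, was found in 8 (7.34%). Klrb1c was found in 6 cells and Ncr1 in 4, both receptors of NK and group 1 innate lymphoid cells. Ncr1 was also on the group 3 list.

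Gamma V segments other than Tcrg-V5 were rare in CD3-negative cells, at 3 of 109. The gamma constant gene Tcrg-C1, which the rule used, was found in 89.2% of cells with Cd3d or Cd3e, in 75.6% of Cd3g-only cells and in 75.2% of CD3-negative cells, against 9.71% of alpha-beta T cells and 0.0926% of macrophages. As a gene of the rule it had to be common among the selected cells, so nothing is read from these shares. Tcrg-V5 itself was found in 33 of 109 (30.3%), close to the 26 of 83 (31.3%) in cells with Cd3d or Cd3e. In the 83 cells Tcrg-V5 was never the only gamma V segment (0 of 83), and in CD3-negative cells it was the only one in 32 of 33.

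Among 6394 genes with at least 50 UMIs, CD3-positive cells were at least 2-fold higher than CD3-negative cells in all 4 libraries for 33 genes (0.516%) and lower for 93 (1.45%), with 10 added to each CPM value (the gene's UMIs with the class in each library scaled to 1000000 UMIs). Trdv4, Tcrg-V6, Trgv2, Cd247 and Blk led the higher genes. Hmgn3, a nucleosome-binding protein, led the lower genes, at 16.8 and 2.59 CPM in CD3-positive cells against 536 and 682 CPM in CD3-negative cells of the HI libraries, and at 10.4 and 16.7 against 802 and 565 CPM in the naive libraries. Ddc, the enzyme that makes dopamine and serotonin, was at 0 and 2.59 CPM against 321 and 357 CPM in HI, and at 1.73 and 15 against 495 and 331 CPM in naive. Neither gene overlapped between the classes.

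Against alpha-beta T cells, CD3-positive cells were higher for 140 of 5849 genes (2.39%) and lower for 93 (1.59%). Arg1, Ccr2, Tmem176a and Id2 led the higher genes, and Trbv19, Ifi27l2a, Ccr7 and Trbv31 the lower ones. Id2, a factor that all innate lymphoid lineages need, was at 1250 and 1240 CPM in HI and 910 and 674 CPM in naive CD3-positive cells, against 116 and 63 CPM in HI and 75.9 and 20.8 CPM in naive alpha-beta T cells. CD3-negative cells were higher than alpha-beta T cells for 252 of 5614 genes (4.49%), led by Hmgn3, Serpina3g, Tmem176b and Tmem176a, and lower for 124 (2.21%), led by Cd247, Ms4a6b, Slfn1 and Cd2. The rule chose the cells on expression, so these counts are a description, and alpha-beta T cells had fewer UMIs per cell.

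The receptor libraries gave a readout that only partly entered the rule, since only productive TRB contigs kept a cell out. A TRB contig with no V gene was found in 70 of the 83 cells with Cd3d or Cd3e (84.3%, interval 74.7 to 91.4%), in 34 of 41 Cd3g-only cells (82.9%, 67.9 to 92.8%) and in 74 of 109 CD3-negative cells (67.9%, 58.3 to 76.5%). It was found in 55 of 103 alpha-beta T cells (53.4%) and in 9 of 16194 macrophages (0.0556%). Of 346 barcodes with any contig in the T-cell receptor libraries, 184 (53.2%) were selected cells.

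These V-less transcripts used 12 J segments, and most used 1 of them. Each of 178 selected cells had 1 such contig, none with a named D gene, and 125 of the 178 (70.2%) used the joining segment TRBJ2-1. TRBJ2-7 came next with 19 (10.7%), and the other 10 J segments had at most 7 contigs each. Among the 55 V-less contigs of alpha-beta T cells, 27 used TRBJ2-1 (49.1%). The V-less contigs of the selected cells had a median of 10.5 UMIs and 382.5 bases, against 25 UMIs and 655 bases for the 108 productive TRB contigs of alpha-beta T cells. Of all the cells with Cd3d or Cd3e, 38.6% had a V-less TRBJ2-1 contig, and the share was 68.3% in Cd3g-only cells and 59.6% in CD3-negative cells.

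**Figure D2:**
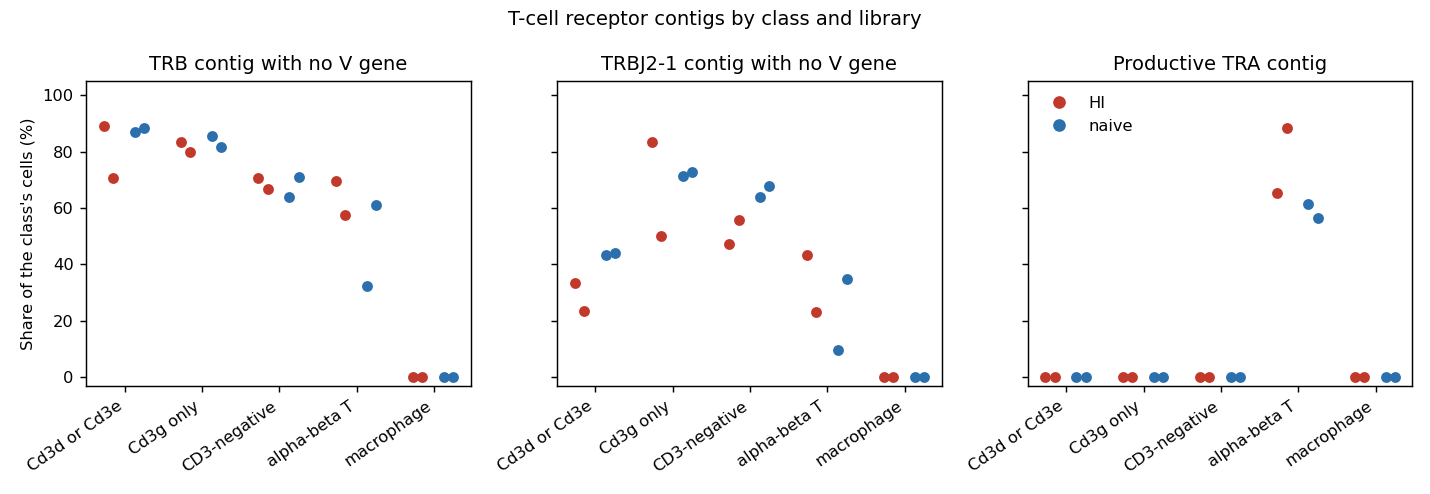
Share of cells (%) in 5 classes with a TRB contig lacking a V gene (left), with such a contig that uses TRBJ2-1 (middle) and with a productive TRA contig (right); each point is 1 library, HI in red and naive in blue, libraries 1 and 2 from left to right. In all 4 libraries at least 64% of each selected class had a V-less TRB contig and none had a productive TRA contig.

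Contigs of the alpha chain (TRA) were rare in selected cells. No selected cell had a productive TRA contig (0 of 83, 0 of 41 and 0 of 109, which allow shares of up to 4.35%, 8.6% and 3.33%), against 70 of 103 alpha-beta T cells (68%, 58 to 76.8%). The rule did not use TRA. A TRA contig of any kind was found in 11 of the 83 cells, in 2 of the 41 and in none of the 109. A TRB contig with a V gene that was not productive was found in 7 of the 83 cells and in none of the other selected cells.

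The share of CD3-positive cells lay lower in both HI libraries than in both naive libraries. CD3-positive cells made up 0.356% and 0.421% of filtered cells in HI, against 0.722% and 0.757% in naive. The groups did not overlap, and the mean was 0.389% ± 0.046 in HI and 0.74% ± 0.0244 in naive (SD, n = 2 each), a ratio of 0.525. An exact 2-sided permutation test gave p = 0.333, the smallest value that 2 against 2 libraries can give, so no share can pass 0.05 here. CD3-negative cells made up 0.404% and 0.562% in HI against 0.488% and 0.521% in naive, with overlap (HI minus naive -0.0222 percentage points, p = 1.0, exact permutation test; 0.0569 without HI library 1). All selected cells together made up 0.76% and 0.983% in HI against 1.21% and 1.28% in naive (ratio 0.7, p = 0.333, exact permutation test).

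Cells with Cd3d or Cd3e made up 0.214% and 0.265% in HI against 0.449% and 0.572% in naive, and those with the Tcrg-V6 and Trdv4 pair 0.166% and 0.156% against 0.371% and 0.303%. The ratios were 0.469 and 0.478. Cd3g-only cells made up 0.142% and 0.156% in HI against 0.273% and 0.185% in naive, on 6 and 10 against 14 and 11 cells. None of these 3 overlapped between the groups, and each had p = 0.333 in the exact permutation test. Alpha-beta T cells overlapped, at 0.546% and 0.406% in HI against 0.605% and 0.387% in naive.

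**Figure D3:**
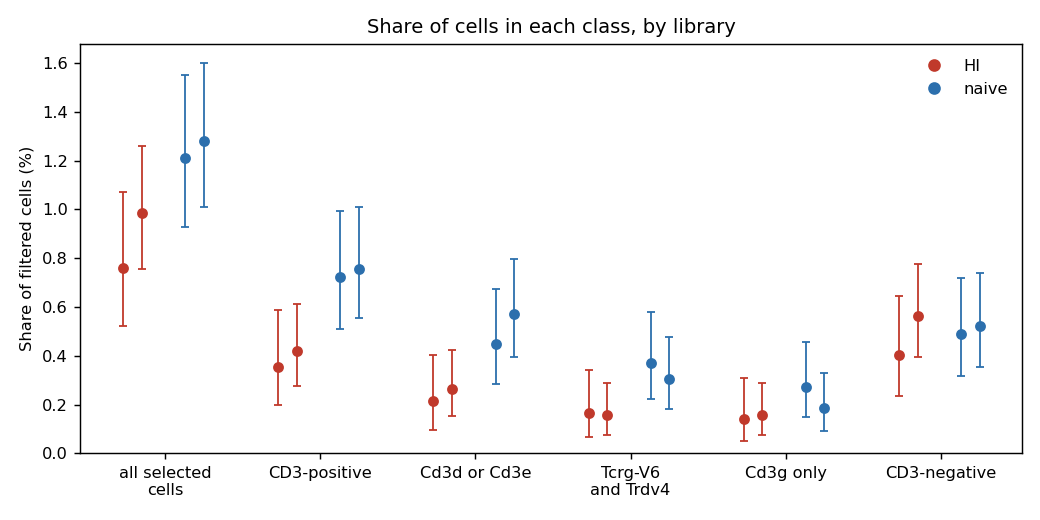
Share of filtered cells (%) in 6 classes, 1 point per library with its exact 95% binomial interval, HI in red and naive in blue. For CD3-positive cells both HI libraries (0.356% and 0.421%) lie below both naive libraries (0.722% and 0.757%), and for CD3-negative cells the groups overlap.

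The denominator matters for these shares. Of all lymphocytes in the count (selected cells and alpha-beta T cells), CD3-positive cells were 27.3% and 29.3% in HI against 38.9% and 44.6% in naive, again with no overlap. CD3-negative cells were 30.9% and 39.1% in HI against 26.3% and 30.7% in naive (p = 0.333, exact permutation test). HI was thus the higher group by this measure, while the groups overlapped among filtered cells. Among the selected cells themselves, 46.9% and 42.9% were CD3-positive in HI against 59.7% and 59.2% in naive (p = 0.333, exact permutation test). Mki67, a gene of dividing cells, overlapped between the groups. With each cell thinned to 3000 UMIs it was found in 9.38% and 17.5% of selected cells in HI and in 12.9% and 17.1% in naive. Without thinning it was found in 18.8% and 27% in HI and in 25.8% and 27.6% in naive.

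Few genes passed the test between HI and naive cells. UMIs were summed per library and tested with edgeR's quasi-likelihood test, 2-sided, with Benjamini-Hochberg adjustment over all genes tested at 0.05. Over all selected cells 2 of 7569 genes passed (0.0264%), Calca and S100a8, and both were higher in HI. DESeq2 called 9 genes, and 457 genes had an unadjusted edgeR p under 0.05. With 1 library left out edgeR called more genes, 41 without HI library 1, 106 without HI library 2, 80 without naive library 1 and 183 without naive library 2. In CD3-positive cells 2 of 5701 genes passed (0.0351%), S100a8 and Gadd45b, both higher in HI, and with 1 library left out it called 198, 125, 63 and 99 genes in the same order of libraries. In CD3-negative cells none of 5074 passed (0.0%) with edgeR, where 138 had an unadjusted p under 0.05 and DESeq2 called 2. With 1 library left out 18, 61, 2 and 0 genes passed in that order.

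Calca encodes calcitonin gene-related peptide, a peptide that group 2 innate lymphoid cells are known to make. Its level was 634 and 301 CPM in HI against 6.89 and 0 CPM in naive, on 252 and 229 UMIs against 6 and 0. Both HI libraries lay above both naive libraries (log2 change 7.10, SE 0.64, adjusted p = 0.00693 with edgeR; adjusted p = 0.109 with DESeq2). The UMIs sat in few cells: 7 of 32 and 4 of 63 selected cells in HI had any, against 2 of 62 and 0 of 76 in naive. The highest cell held 93 UMIs in HI library 1 and 156 in HI library 2. Of the 8 cells with the most Calca, which were all HI cells, 4 were Cd3g-only, 3 were CD3-negative and 1 had Cd3d or Cd3e, and all 8 had Il1rl1 UMIs. In macrophages Calca was at 0.104 and 0.114 CPM in HI and 0.0661 and 0.0594 CPM in naive.

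Single cells held most UMIs of the other called genes. S100a8, a calcium-binding protein of neutrophils, had 67 and 132 UMIs in HI against 0 and 1 in naive over all selected cells, a ratio of 319. The counting interval of 56.6 to 12700 takes each UMI as independent, which they were not. Of the HI UMIs, 66 came from 1 cell of HI library 1 and 132 from 1 cell of HI library 2, and the second cell was called a doublet. Both cells were CD3-positive, and S100a9, its partner gene, had 3 and 2 UMIs in them. The log2 change was 7.95 (SE 0.43, adjusted p = 0.000186, edgeR), and without called doublets the gene was too low to be tested. In macrophages S100a8 was at 295 and 110 CPM in HI against 37.1 and 23 CPM in naive. The summed level of 8 neutrophil genes in the selected cells was 184 and 190 CPM in HI against 13.8 and 12.2 CPM in naive, and its part in the call was not tested.

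Gadd45b, a stress-induced regulator of growth arrest, was at 78.2 and 116 CPM in HI against 6.92 and 5.02 CPM in naive CD3-positive cells (log2 change 4.10, SE 0.42, adjusted p = 0.0298 with edgeR). It was found in 4 and 4 cells in HI and in 3 and 3 in naive. The highest HI cells held 9 of 14 and 34 of 45 UMIs. The cell with 34 was also the one with 88 Il17a UMIs, and the cell with 9 the one with 66 S100a8 UMIs. In CD3-negative cells Gadd45b was at 128 and 5.33 CPM in HI against 6.83 and 38.5 CPM in naive, with overlap.

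**Figure D4:**
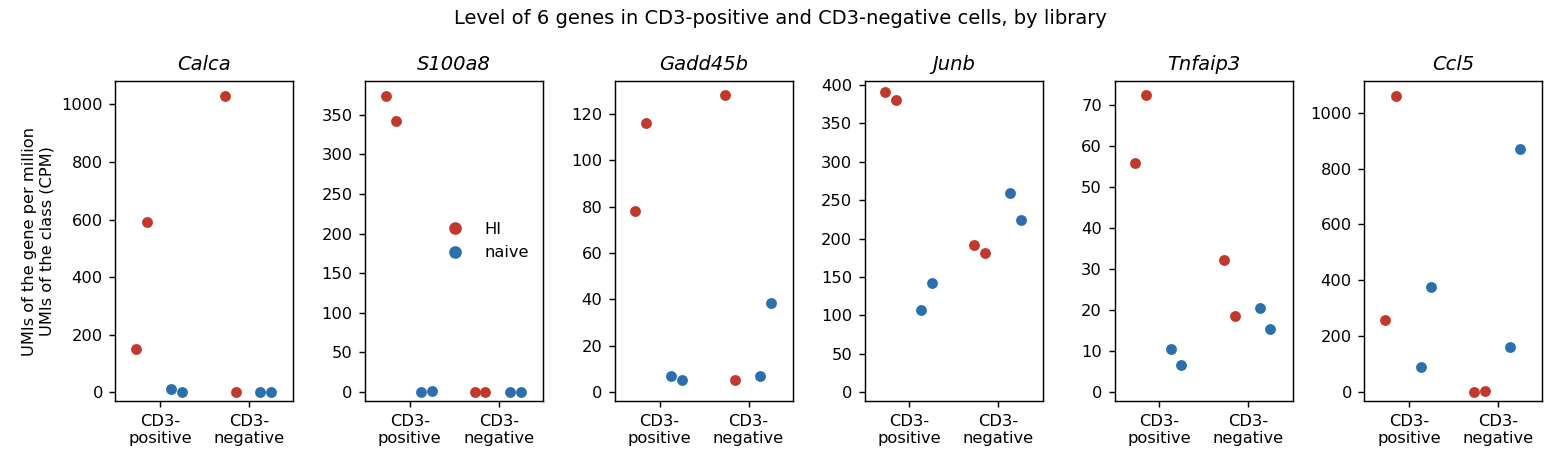
Level of 6 genes in CPM in CD3-positive and CD3-negative cells, 1 point per library, HI in red and naive in blue, libraries 1 and 2 from left to right. In CD3-positive cells Junb was at 391 and 380 CPM in HI and 107 and 142 CPM in naive, while in CD3-negative cells Ccl5 was at 0 and 2.66 CPM in HI and 160 and 871 CPM in naive. Single cells held 39 of 70 and 38 of 147 of these Junb UMIs in HI. The naive Ccl5 UMIs lay in 2 and 3 cells.

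Most genes of the immediate-early and NF-kB response had a log2 change above 0 in CD3-positive cells, and none passed the test. Of 24 listed genes 14 were tested, 12 had a log2 change above 0 and none was called, with a median log2 change of 0.88 against 0.01 over all genes tested. In CD3-negative cells 11 were tested, 5 lay above 0 and none was called, with a median of -0.17 against -0.0 over all genes. Junb, an AP-1 transcription factor, was at 391 and 380 CPM in HI against 107 and 142 CPM in naive CD3-positive cells, with no overlap (log2 change 1.70, SE 0.21, adjusted p = 0.0902, edgeR). Of its 70 UMIs in HI library 1, 39 came from a single Cd3g-only cell. Of its 147 UMIs in HI library 2, single cells held 38 and 30. Tnfaip3, an inhibitor of NF-kB signalling, was at 55.9 and 72.5 CPM against 10.4 and 6.69 CPM (log2 change 3.0, SE 0.42, adjusted p = 0.0911, edgeR). In CD3-negative cells Junb was at 192 and 181 CPM in HI and 259 and 224 CPM in naive, below naive in both. The test of the difference between the classes called none of 16 tested genes of this list, 14 of which lay above 0 (median difference 1.52 against 0.01 over all genes).

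Most tested receptor segments of gamma-delta T cells had a log2 change below 0 over all selected cells. Of 18 listed receptor segments outside the rule 8 were tested, 6 lay below 0 and none was called, with a median log2 change of -0.73 against 0.01 over all genes. Trgv2 came nearest, at 80.6 and 94.5 CPM in HI against 243 and 234 CPM in naive, with no overlap (log2 change -1.40, SE 0.17, adjusted p = 0.0544, edgeR). Trdv4 was at 312 and 315 CPM against 577 and 457 CPM (-0.69, SE 0.14, adjusted p = 0.307, edgeR). The share of CD3-positive cells was lower in HI too, as given above. Within CD3-positive cells Trdv4 had a log2 change of -0.23 (SE 0.14) and Trgv2 of -0.96 (SE 0.19, adjusted p = 0.269, edgeR). The interleukin-17 list (16 of 17 genes tested over all selected cells) had 10 genes below 0, none called and a median of -0.09. Over all 7569 genes tested 3724 lay below 0 and the median was 0.01, so nothing is read from the interleukin-17 list.

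Trgv2 also differed in how many Tcrg-V6 cells carried it. It was found in 3 of 7 and 3 of 11 Tcrg-V6 cells in HI (42.9% and 27.3%), against 16 of 20 and 13 of 19 in naive (80% and 68.4%). With cells thinned to 3000 UMIs the shares were 28.6% and 27.3% in HI against 60% and 63.2% in naive. The groups did not overlap (p = 0.333, exact permutation test). This comparison was chosen after the values were seen.

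Most genes of group 2 and group 3 innate lymphoid cells lay above 0. Of 20 group 2 genes 17 were tested, 13 lay above 0 and Calca alone was called, with a median log2 change of 0.52. Over all 7569 genes tested 2 were called, 3845 lay above 0 and the median was 0.01. Il5 was at 17.6 and 146 CPM in HI against 14.9 and 0 CPM in naive, and the 111 UMIs of HI library 2 came from 1 Cd3g-only cell, the same cell that held 156 Calca UMIs (log2 change 3.67, SE 0.99, adjusted p = 0.557, edgeR). Areg, a growth factor of group 2 innate lymphoid cells, was at 2.52 and 159 CPM in HI against 12.6 and 2.03 CPM in naive, with overlap, and its 121 UMIs in HI library 2 were in 1 cell. Il13 was at 7.55 and 13.1 CPM in HI against 43.6 and 2.03 CPM in naive, with overlap. Arg1, found in most Cd3g-only cells, was at 287 and 172 CPM in HI against 343 and 223 CPM in naive, with overlap.

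The group 3 and lymphoid tissue inducer list had 15 of 15 genes tested, 11 above 0, none called and a median of 0.32. In the CD3-negative cells 13 were tested, 9 lay above 0, none was called and the median was 0.27. Cxcr5 was at 151 and 136 CPM in HI against 188 and 123 CPM in naive CD3-negative cells, and Lta at 247 and 527 against 382 and 285 CPM, both with overlap between the groups. Il1rl1 in the CD3-negative cells was at 55 and 50.6 CPM in HI against 17.1 and 12.8 CPM in naive, with no overlap (log2 change 1.84, SE 0.45, adjusted p = 1.0, edgeR). This rested on 12 and 19 UMIs in HI against 5 and 5 in naive. In HI library 1, CD3-negative cells with high Calca held 6, 5 and 1 of the 12. In HI library 2, cells carrying RNA of another lineage held 6 and 4 of the 19. Such cells held 2 and 3 of the 5 in naive library 1 and all 5 in naive library 2.

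The other lists gave no called gene apart from S100a8 on the neutrophil list. Over all selected cells the cytokine list had 13 of 15 tested genes above 0 (median 0.48), the interferon list 7 of 7 (median 0.26), the glucocorticoid list 10 of 13 (median 0.28), the list of cytokine and alarmin receptors 12 of 17 (median 0.23), the cell cycle list 15 of 25 (median 0.04) and the hypoxia and glycolysis list 12 of 19 (median 0.03). The heat shock list had 4 of 15 above 0 (median -0.18), the residency list 9 of 20 (median -0.09), the transcription factor list 7 of 15 (median -0.08), the CD3 complex list 4 of 9 (median -0.03), the NK list 5 of 12 (median -0.12), the alpha-beta T list 6 of 11 (median 0.09), the interferon-gamma T cell list 4 of 7 (median 0.0) and the circadian list 4 of 8 (median 0.07).

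Genes of other lineages were measured in the same cells. All 7 tested macrophage genes lay above 0 (median 1.33), and the summed level of the 9 listed macrophage genes was 803 and 1790 CPM in HI against 133 and 781 CPM in naive. In CD3-positive cells that sum was 168 and 3420 CPM in HI against 69.2 and 304 CPM in naive, with overlap, and 1 cell of HI library 2 held 1258 UMIs. In CD3-negative cells it was 1320 and 120 CPM in HI against 259 and 1510 CPM in naive, with overlap, and 1 cell of naive library 2 held 499 UMIs. No defining macrophage gene of the list was at 0 in the selected cells. All 5 red cell genes were at 0. The B-cell list sum was 143 and 90.6 CPM in HI and 80.3 and 162 CPM in naive, and the mast cell and basophil sum 32.7 and 293 CPM in HI and 286 and 100 CPM in naive, both with overlap. The part of this RNA in the list medians was not tested.

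Ccl5, a chemokine of cytotoxic lymphocytes, was the 1 gene of 6114 (0.0164%) whose HI change differed between CD3-positive and CD3-negative cells. The difference of the log2 changes was 9.65 (SE 0.46, adjusted p = 0.000286, edgeR), with a term for each library in the fit. CD3-positive cells had 46 and 411 Ccl5 UMIs in HI against 52 and 225 in naive, with overlap. CD3-negative cells had 0 and 1 in HI against 47 and 339 in naive, without overlap, and naive was the higher group by a ratio of 336. The counting interval of 59.9 to 13300 takes each UMI as independent, though the naive UMIs lay in 2 and 3 cells. Within CD3-negative cells the HI change was not called (log2 change -7.97, SE 1.27, adjusted p = 0.538, edgeR). Few cells carried Ccl5: 280 of the 411 UMIs were in 1 CD3-positive cell of HI library 2 that was called a doublet, and 258 of the 339 were in 1 CD3-negative cell of naive library 2. Without called doublets the gene still passed (difference 7.66, adjusted p = 0.00522, edgeR). The number of genes called was 17 without HI library 1, 2 without HI library 2, 3 without naive library 1 and 1 without naive library 2.

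Set against macrophages, the most abundant cells of the libraries, the HI change of the selected cells differed for 58 of 13258 genes (0.437%), 34 with a higher and 24 with a lower change in the selected cells. The number called was 24 without HI library 1, 42 without HI library 2, 66 without naive library 1 and 223 without naive library 2. Of the 24, the 6 named here were higher in HI than in naive macrophages. Socs3, a feedback inhibitor of cytokine signalling, was at 176 and 144 CPM in HI against 104 and 95.2 CPM in naive selected cells, and at 15.7 and 19.9 CPM in HI against 3.11 and 2.4 CPM in naive macrophages (difference of log2 changes -2.06, SE 0.25, adjusted p = 0.000493, edgeR). Lmna, a nuclear lamina protein, was at 35.2 and 59.1 CPM in HI against 52.8 and 51.7 CPM in naive selected cells, and at 151 and 202 against 48.6 and 54.7 CPM in macrophages (difference -1.90, SE 0.25, adjusted p = 0.000769, edgeR). Arg1, which breaks down arginine, was at 3.82 and 2.5 CPM in HI against 1.45 and 0.337 CPM in naive macrophages (difference -2.22, SE 0.31, adjusted p = 0.000921, edgeR), while its levels in the selected cells overlapped. Only 37 and 36 macrophages in HI and 22 and 11 in naive had any Arg1 UMI. Single macrophages held 35 of 147 and 48 of 131 UMIs in HI, and 32 of 66 and 5 of 17 in naive. The Arg1 difference did not pass without HI library 2 (adjusted p = 0.0607, edgeR).

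For 6 of the 12 named genes HI and naive lay in opposite order in selected cells and in macrophages, with no overlap in either. The 12 were chosen for large differences in HI change, which favours such an order. Its share among all 13258 genes tested was not counted, so nothing is read from this number. Alox5, Srm and Knop1 were lower in HI than in naive selected cells and higher in HI than in naive macrophages, and H2-Ab1, H2-Aa and Rin2, given below, were the other way round. Alox5, the enzyme that begins leukotriene synthesis, was at 15.1 and 11.8 CPM in HI against 53.9 and 31.4 CPM in naive selected cells, and at 75.1 and 89.6 against 49.1 and 55.8 CPM in macrophages (difference -2.39, SE 0.41, adjusted p = 0.00826, edgeR). It was found in 3 and 5 selected cells in HI and in 7 and 8 in naive. Single cells held 15 of 47 and 10 of 31 UMIs in naive. Srm, spermidine synthase, was at 55.4 and 55.1 against 125 and 148 CPM in selected cells, and at 89.8 and 68.9 against 59.4 and 55.1 CPM in macrophages (difference -1.74, SE 0.24, adjusted p = 0.000921, edgeR). Knop1, a nucleolar protein, was at 25.2 and 34.1 against 58.5 and 39.5 CPM in selected cells and at 84.9 and 91.8 against 46.6 and 47.2 CPM in macrophages (difference -1.59, SE 0.30, adjusted p = 0.0172, edgeR). The Alox5 difference did not pass without HI library 1 (adjusted p = 0.062) or HI library 2 (0.347) or with DESeq2 (0.0518). The Knop1 difference did not pass without HI library 1 (adjusted p = 0.17), HI library 2 (0.207) or naive library 1 (0.135), or with DESeq2 (0.0552). Within the selected cells alone none of Alox5, Srm and Knop1 passed the test (log2 changes of -1.66, -1.28 and -0.64).

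**Figure D5:**
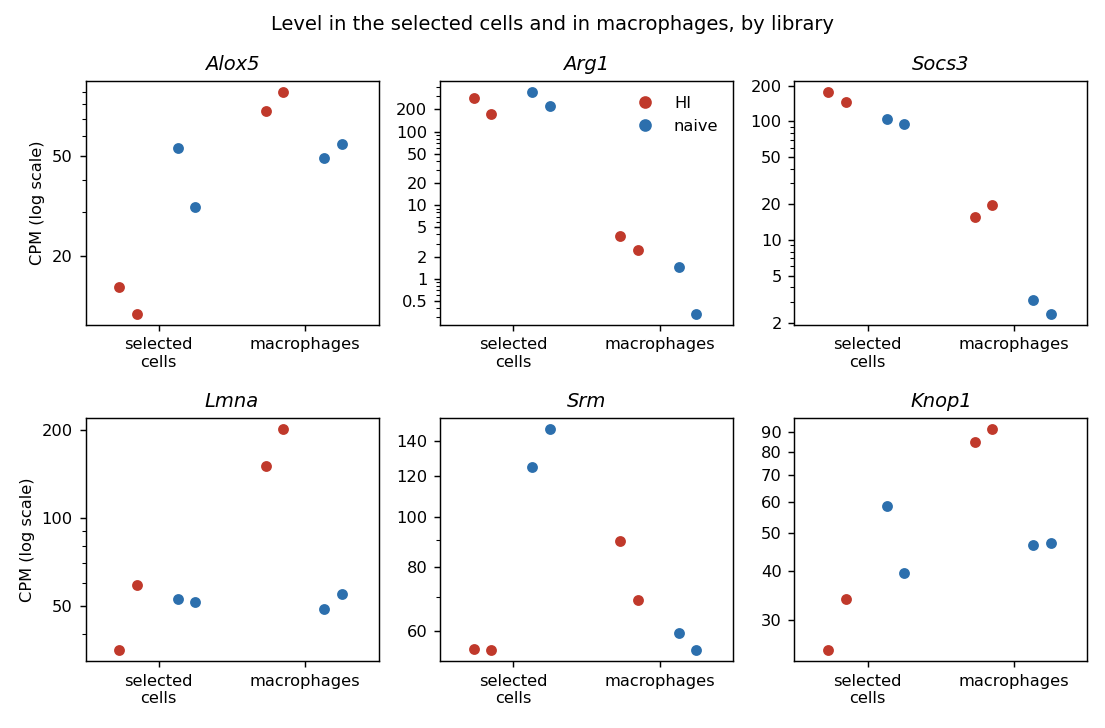
Level in CPM, on log axes, of the 6 genes named by the rule for which the HI change was lower in the selected cells than in macrophages; each point is 1 library, HI in red and naive in blue, libraries 1 and 2 from left to right. Alox5, Srm and Knop1 were lower in HI than in naive selected cells and higher in HI than in naive macrophages.

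Among the 34 genes with a higher change in the selected cells, the largest differences were Calca (6.34), S100a8 (5.75), Cd14 (4.58), H2-Ab1 (4.51), Rin2 (4.45) and H2-Aa (3.95). H2-Ab1 and H2-Aa encode class II antigen presentation molecules. H2-Ab1 was at 229 and 177 CPM in HI against 2.3 and 52.7 CPM in naive selected cells, and at 5.33 and 8.9 CPM in HI against 20.9 and 24.5 CPM in naive macrophages. H2-Aa was at 544 and 383 CPM in HI against 0 and 213 CPM in naive selected cells, and at 9.38 and 14.7 against 32.2 and 39 CPM in macrophages. In the HI libraries 1 cell each held 75 of 91 and 128 of 135 H2-Ab1 UMIs, and 177 of 216 and 270 of 292 H2-Aa UMIs. Without called doublets neither difference passed (adjusted p = 0.081 for H2-Ab1 and 0.439 for H2-Aa, edgeR), nor with DESeq2 (0.0894 and 0.585). H2-Aa did not pass without HI library 1 (adjusted p = 0.276) or HI library 2 (0.0769), nor did Calca (0.166 and 0.0635, edgeR). H2-Aa and H2-Ab1 did not pass in the selected cells alone (log2 changes of 2.10 and 2.83, adjusted p = 0.845 and 0.416, edgeR).

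Cd14 and Rin2, genes of macrophages, rested on few UMIs. Cd14, a co-receptor for lipopolysaccharide, was at 62.9 and 5.25 CPM in HI against 2.3 and 0 CPM in naive selected cells, and at 228 and 184 against 215 and 191 CPM in macrophages. Of its 25 UMIs in HI library 1, 23 were in 1 cell, and without that library the difference did not pass (adjusted p = 0.922, edgeR), nor with DESeq2 (0.713) or DESeq2 size factors (0.0611). Rin2 was at 5.03 and 13.1 CPM in HI against 1.15 and 0 CPM in naive selected cells, and at 210 and 206 against 238 and 246 CPM in macrophages. Its difference did not pass without HI library 1 (adjusted p = 0.0592), HI library 2 (0.645) or naive library 2 (0.101), at 6 or more selection UMIs (0.705, edgeR) or with DESeq2 (0.339). Of the 58 genes, 8 had a mean level over the 4 libraries more than 10 times higher in macrophages than in selected cells, and all 8 were among the 34 with a higher change in the selected cells. How many of all 13258 genes tested met the same limit was not counted, so nothing is read from this number. Without cells carrying RNA of another lineage, 85 genes were called and 47 of the 58 were among them, while Rin2 was not (adjusted p = 0.954, edgeR).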

How the data were processed

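The authors deposited gene-by-cell tables of UMI counts for 4 gene expression libraries and contig tables for their receptor libraries. The counts are raw and not normalized. Cell Ranger 2.2.0 and Seurat 3.027 are named in the submitters' processing notes, with builds mm10 and GRCm38, without saying which step used which. Barcodes under 200 genes, or with over 10% of UMIs from mitochondrial genes, were left out. The rule's members, the 24 gene lists (4 of 356 genes absent) and the comparisons were chosen with earlier results of these data known. UMIs were summed per library and class and tested with edgeR 4.0.16 (filterByExpr, TMM), with DESeq2 1.42.0 as an alternative; the method was tested on simulated data. Named genes passed 0.05 with no overlap between HI and naive libraries, ranked by log2 change, up to 12 each way for all members and 6 each way otherwise. For a difference between classes, overlap was judged on the log2 ratio between the classes in each library, with 10 added to each CPM value. Levels within a class could therefore overlap. Doublets were scored with Scrublet in scanpy 1.11.5, taking 0.8% per 1000 barcodes. Alpha-beta T cells had a productive TRB contig, a CD3 gene and at most 5 macrophage UMIs, and macrophages at least 20. Shares carry exact Clopper-Pearson 95% intervals. Alternatives covered normalization, filtering, the selection limits, doublets, pairing and each library left out. The labels do not tie library numbers to the study's runs, so numbers were not taken as pairs. A gene of the lists is not reported here. NK cells (7) were not compared, and HI and naive cells with Cd3d or Cd3e were not tested gene by gene, since HI library 1 held 9.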

Additional observations from a re-analysis of the deposited data

Results flagged for a closer look

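These results are listed because the HI change itself differed between classes of cells by a test of that difference (edgeR, a term for each library). No group had enough libraries for a test of single libraries that stand apart. Between CD3-positive and CD3-negative cells 1 gene passed, Ccl5, with a difference of log2 changes of 9.65. In HI library 2, 280 of the 411 UMIs of CD3-positive cells lay in 1 cell, and in naive library 2, 258 of the 339 UMIs of CD3-negative cells lay in 1 cell.

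Between selected cells and macrophages 58 genes passed. The named genes with a higher change in selected cells were Calca (6.34), S100a8 (5.75), Cd14 (4.58), H2-Ab1 (4.51), Rin2 (4.45) and H2-Aa (3.95). Those with a lower change were Alox5 (-2.39), Arg1 (-2.22), Socs3 (-2.06), Lmna (-1.9), Srm (-1.74) and Knop1 (-1.59). Of these, Socs3, Lmna and Srm passed in all 11 alternatives run. Rin2 lost its call in 6 of the 11, H2-Aa and Knop1 in 4, Alox5 and Cd14 in 3, Calca and H2-Ab1 in 2, and S100a8 and Arg1 in 1.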

How the results depend on the processing

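In HI minus naive percentage points, the share of selected cells was -6.93 of lymphocytes. For CD3-positive cells it was -0.415 without doublets, -0.229 with cells thinned to 3000 UMIs and -13.4 of lymphocytes, and for cells with Tcrg-V6 and Trdv4 it was -7.11 of lymphocytes. The CD3-negative share changed sign to 6.52 of lymphocytes and 0.0055 without cells carrying RNA of another lineage, and lay between -0.101 and 0.0569 with 1 library left out. Numbers of genes called moved most. Over all selected cells they were 9 with DESeq2, 195 without a filter on low counts, 1 without doublets, 8 without cells carrying other-lineage RNA and 41 to 183 with 1 library left out. In CD3-positive cells they were 11 with DESeq2, 1 without a filter, 11 at 2 or more CD3 UMIs and 63 to 198 with 1 library left out. In CD3-negative cells they were 2 with DESeq2, 64 without a filter and 0 to 61. For the difference between these classes they were 93 without a filter, 3 at 6 or more selection UMIs and 1 to 17, and against macrophages 32 with DESeq2, 212 without a filter and 24 to 223. A replicate block by library number gave 40, 34 and 1 calls in all selected, CD3-positive and CD3-negative cells, and crossed numbers, tried after seeing the data, gave 8, 15 and 22. Deviations of same-numbered libraries had correlations of -0.042, 0.187 and -0.382 in these classes, so the sign differed, and the block by number is not taken as the runs. No named gene changed sign. Calca lost its call with DESeq2 (adjusted p = 0.109), Gadd45b without a filter (adjusted p = 0.11), and against macrophages S100a8 lost its call without doublets (adjusted p = 0.282), where over all selected and CD3-positive cells it could not be tested. Calls of 8 other named genes against macrophages that were lost are given with those genes. The causes were not tested. The depth limit is the number of cells, as few as 15 CD3-positive cells in HI library 1.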

Other observations

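The B-cell receptor libraries, which no comparison above uses, also held T-cell transcripts. They had 53 contigs of the T-cell receptor gamma chain (TRG), 18 in HI and 35 in naive libraries. None had a V gene, and 2 of the 53 were in selected cells. Of the 233 selected cells 18 had some contig in the B-cell receptor libraries, and none had a productive immunoglobulin contig.

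The cell of HI library 2 with 88 Il17a UMIs, the 34-UMI carrier of Gadd45b, also had 8 Il13 UMIs. In naive library 1, 1 Cd3g-only cell held 25 Il13 UMIs with 28 Gata3 UMIs and 4 Il1rl1 UMIs. Hdc, the enzyme that makes histamine and a gene of mast cells and basophils, had 46 UMIs in 1 Cd3g-only cell of HI library 2 with 23 Gata3 UMIs. The other cells with more than 10 Hdc UMIs were CD3-negative cells carrying other mast cell or basophil genes, apart from 1 Cd3g-only cell of HI library 1 with 11.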
